A study of Mus musculus with 6 samples.

Results

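Ago2-IP peaks were examined over 9 genes for giant cytoskeletal linker proteins, which were Macf1, Dst, Plec, Dsp, Syne1, Syne2, Sptan1, Sptbn1 and Ahnak. A peak belonged to a gene if it overlapped an exon of that gene by at least 1 bp in the GENCODE M21 annotation of mm10 (GRCm38). Peaks of different libraries that overlapped or touched were merged into intervals, and 160 of the 38946 exonic intervals lay over these 9 genes. The genes were chosen by their peak counts in these same libraries, so counts and densities are given as a description without a test. Only the difference between conditions was tested, gene by gene.

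RNA bound to Ago2, the core protein of the RNA-induced silencing complex (RISC), was sequenced from MSC, which are primary mouse satellite cells and the progenitors of muscle fibres. Duplex RNA, either miR-222 or siGFP as control, was given at 30 h of differentiation, and lysates were made 16 h later. The labels put the duplex at 10 nM, and the study's methods state another concentration. The first of 2 experiments held control-IP replicates 1 and 2 with miR-222-IP replicate 1, and the second held control-IP replicates 3 and 4 with miR-222-IP replicate 2. The strain and age of the mice are not given in the sources used here, no genetic change is named, and nothing says whether control replicates of an experiment were separate cultures, so p-values measure only the spread between these samples. The title of miR-222-IP replicate 2 names miR22 and its condition label miR222, and the condition label was followed.

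Linker proteins of this size span the distance between different parts of the cytoskeleton. Spectraplakins join actin filaments to microtubules, plakins anchor intermediate filaments, nesprins tie the nuclear envelope to the cytoskeleton, and spectrins form the elastic meshwork under the plasma membrane. In muscle, such proteins hold myofibrils, costameres and myonuclei in place. Ago2 carries a miRNA whose seed, its bases 2 to 8, pairs with a matching stretch of the target mRNA.

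Values of 5 libraries are given throughout in 1 order, first control-IP replicates 1, 2 and 4 and then miR-222-IP replicates 1 and 2. The peak lists were 10579, 20000 and 17892 long in the control-IPs and 21074 and 37762 long in the miR-222-IPs. Each peak has a score, the −log10 p of the peak caller, and all scores are above 20. The files give no read counts, so the depth behind a peak is unknown and counting error cannot be stated. A gene without a peak has no listed enrichment past that score, and its RNA may still have been bound. Control-IP replicate 3 had 3619 peaks with a median width of 32103 bp and is described apart at the end. Of 10 myocyte markers, all had a peak, and 6 of them had one in all 5 libraries. The summed peaks over these 10 markers were 12 to 24 in 4 libraries and 158 in miR-222-IP replicate 2, or 0.635 to 1.49 and 4.38 per 1000 exonic peaks. The very long genes Ttn and Neb gave 122 of the 158, and the other 8 markers had 1.19, 0.529 and 0.578 peaks per 1000 exonic peaks in the control-IPs and 0.639 and 0.998 in the miR-222-IPs, so their groups overlapped. Both leukocyte markers, Ptprc and Cd68, had peaks, with sums of 2 to 20 over the 5 libraries. Ptprc had 0, 10 and 14 in the control-IPs and 14 and 18 in the miR-222-IPs, and Cd68 had 2 in each library. Peaks lay over 2 of 4 fibroblast markers, 2 of 3 endothelial markers, 1 of 2 Schwann cell markers and 2 of 2 neuron markers, each list with at most 6 peaks in a library. All 4 epithelial markers were at 0. Fewer cells of a type and less RNA per cell cannot be told apart in such pooled RNA.

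Macf1, Dst, Sptbn1 and Sptan1 carried 356 of the 368 peaks over the 9 genes. Ahnak, Plec, Syne1 and Syne2 had 12 peaks between them, and Dsp had none. Over the 9 genes together, the control-IPs had 10, 56 and 60 peaks and the miR-222-IPs 88 and 154. The order of the libraries followed the length of their lists except that control-IP replicate 4 had more member peaks than the longer list of control-IP replicate 2. Over the pooled coding sequence of 158.967 kb, the density was 0.0629, 0.333 and 0.377 peaks per kb for control-IPs, and 0.554 and 0.969 for miR-222-IPs. Over the 15.591 kb of pooled 3'UTR it was 0.0641, 0.321 and 0.257 for control-IPs, and 0.257 and 0.513 for miR-222-IPs. The spread between libraries was wide on both scales, with the shortest list lowest and the longest list highest.

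**Figure D1:**
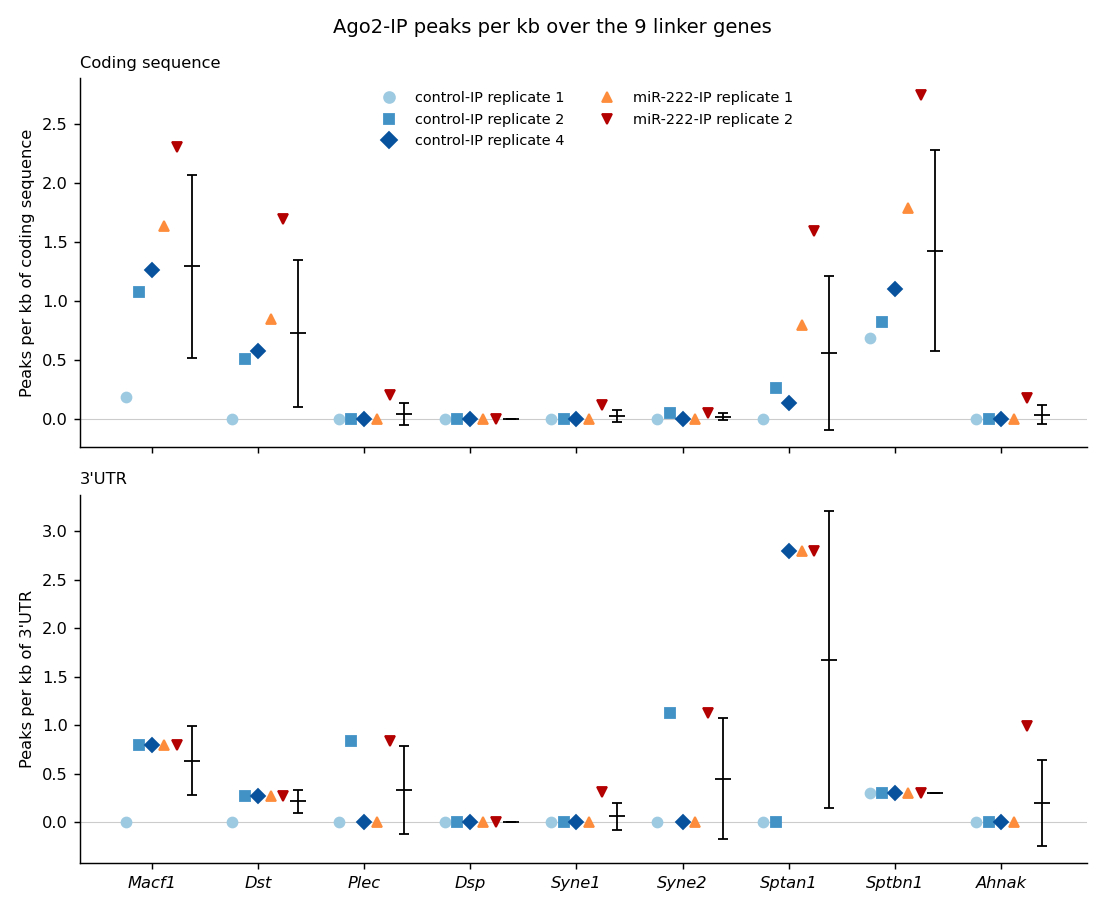
Peaks per kb of coding sequence (top) and of 3'UTR (bottom) for each of the 9 genes; symbols are the 5 libraries and black bars the mean and SD (n = 5). Macf1, Dst, Sptan1 and Sptbn1 stand above the other 5 genes by their mean in coding sequence, miR-222-IP replicate 2 is the highest library for each of them, and 3'UTR values take few levels because a 3'UTR had at most 1 peak in a library.

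Macf1 and Dst are the spectraplakins. Macf1 (ENSMUSG00000028649, chr4:123349633-123684360, minus strand) codes for a crosslinker of actin and microtubules, and it had 5, 30 and 34 peaks in the control-IPs and 44 and 62 in the miR-222-IPs. Its coding sequence of 26.891 kb carried 0.186, 1.08 and 1.26 peaks per kb in these control-IPs and 1.64 and 2.31 in the miR-222-IPs, with a mean of 1.29 ± 0.777 (SD, n = 5). These peaks merged into 64 intervals, the most over any of the 10289 protein-coding genes with an exonic interval. The titin gene Ttn followed with 63, the nebulin gene Neb with 58, Dst with 53, Wdfy3 with 40, Dock2 with 39 and Birc6, tied with 3 others, with 38. Ttn and Neb differed from Macf1 in where their peaks came from, since Ttn had 64 peaks and Neb 58 in miR-222-IP replicate 2 but at most 7 in any other library.

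In Macf1, 11.1%, 26.9% and 38.1% of coding bases lay under peaks in the control-IPs, and 43.4% and 64.6% in the miR-222-IPs. Its longest coding transcript was divided into 4 equal stretches from the 5' end, and the third had 34.4%, 38.3% and 73.5% of bases under peaks in the control-IPs and 81.1% and 92.4% in the miR-222-IPs. The first had 0% to 17.0% in the control-IPs and 25.5% and 52.6% in the miR-222-IPs. The third stretch was above the first in all 5 libraries and the densest in 4 of them, while in control-IP replicate 2 the last stretch was denser (44.6%). The highest Macf1 score lay over its exon 53 at chr4:123440446-123440892, with 27.5, 131 and 74.7 in the control-IPs and 119 and 140 in the miR-222-IPs. The interval at its 3' end, chr4:123349635-123351222, covered 254 coding bases and 1257 bases of 3'UTR. It had a peak in 4 libraries (scores 105 and 57.8 in control-IP replicates 2 and 4, and 72.6 and 123 in the miR-222-IPs) and none in control-IP replicate 1.

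Dst (ENSMUSG00000026131, chr1:33908225-34308661, plus strand) codes for dystonin, the other spectraplakin. It had 0, 16 and 17 peaks in the control-IPs and 25 and 50 in the miR-222-IPs. Per kb of its 29.476 kb of coding sequence this gave 0, 0.509 and 0.577 in the control-IPs and 0.848 and 1.70 in the miR-222-IPs (mean 0.726 ± 0.623, SD, n = 5). Dst was below Macf1 in each of the 5 libraries on this scale. Its highest score was 92.0 in control-IP replicate 2, over exon 29 of Dst-211 at chr1:34169647-34169980, where control-IP replicate 1 had no peak, control-IP replicate 4 had 42.2 and the miR-222-IPs had 50.8 and 49.1. In the second of 4 equal stretches of the Dst-211 mRNA there was no base under a peak in the 3 control-IPs, and 3.07% and 22.9% in the miR-222-IPs. The third stretch was again the densest in 3 libraries, with 22.0% in control-IP replicate 2 and 46.6% and 82.9% in the miR-222-IPs. Control-IP replicate 4 had more in the first stretch (30.2%) than in the third (28.1%).

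**Figure D2:**
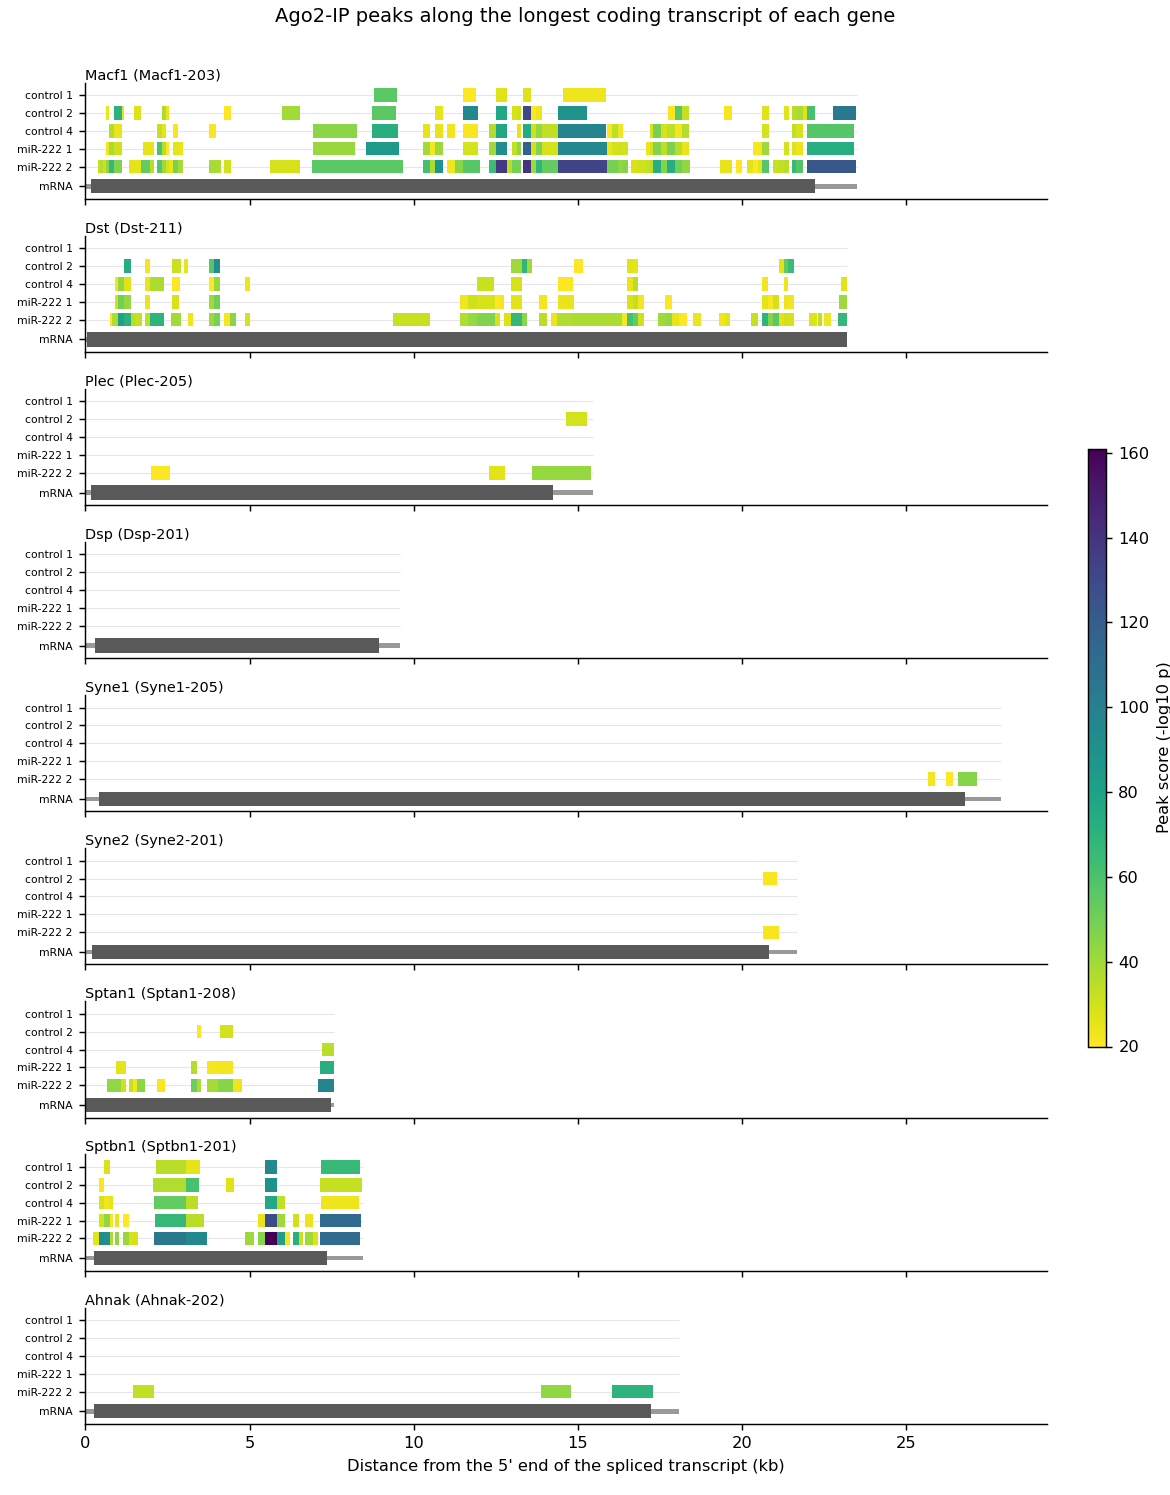
Peaks of the 5 libraries along the longest coding transcript of each gene, drawn to scale in kb from its 5' end; colour gives the score (−log10 p), and in the bottom row of each panel the thick grey bar is coding sequence and the thin bar UTR. Macf1 is covered along most of its length in miR-222-IP replicate 2, Dst has a gap in the second of 4 equal stretches, and the peaks of Syne1 and Syne2 sit at the 3' end.

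The long alternative exons of the spectraplakins differed in their peaks. Macf1 has a coding exon of 5331 bp that 4 of its 15 coding transcripts include, and it had a peak in all 5 libraries, with highest scores of 56.3, 55.3 and 72.0 in the control-IPs and 85.3 and 55.8 in the miR-222-IPs. The Dst coding exon of 5292 bp, included by 4 of 14 coding transcripts, was called only once, in miR-222-IP replicate 2 (score 31.7). Another long exon, 1472 bp in both genes, had a peak in all 5 libraries over Macf1 (scores 23.5 to 133). Over Dst it was called at 20.3 in control-IP replicate 2 and at 37.9 in miR-222-IP replicate 2. Exons of a single transcript had few peaks in both genes. A Macf1 coding exon of 3270 bp that only Macf1-208 uses was called by miR-222-IP replicate 2 (28.7) and by no other library, and the coding parts of 2703 and 1899 bp that only Dst-213 uses had no peak in any of the 5 libraries.

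A Macf1 and a Dst transcript of 98 coding exons each were lined up, and 80 of the exons could be paired in order by equal length. In miR-222-IP replicate 2, both exons of a pair had a peak in 37 pairs, only Macf1 in 20, only Dst in 9 and neither in 14. In miR-222-IP replicate 1 the same counts were 14, 22, 9 and 35. The counts were 8, 17, 8 and 47 for control-IP replicate 2, 9, 18, 5 and 48 for replicate 4, and 0, 3, 0 and 77 for replicate 1. Pairs with a peak over Macf1 alone outnumbered those with a peak over Dst alone in all 5 libraries. Over the 37 pairs with both exons called by miR-222-IP replicate 2, the median score was 41.1 for Macf1 and 36.7 for Dst, and Macf1 had the higher score in 19 of 37 pairs. A peak that spans adjacent exons enters each of their pairs, so these counts and medians hold some peaks more than 1 time. Equal length shows only that the exons could be lined up, and their sequences were not aligned.

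**Figure D3:**
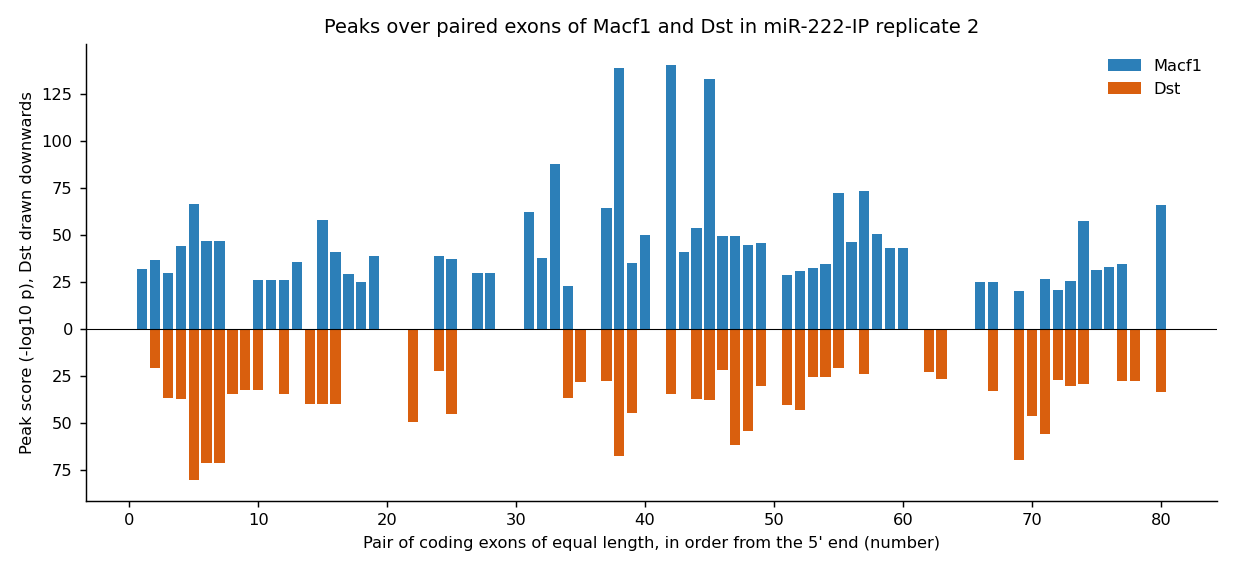
Highest peak score (−log10 p) in miR-222-IP replicate 2 over each of 80 pairs of coding exons of equal length, in order from the 5' end, with Macf1 drawn upwards and Dst downwards from 0. Both genes have a bar in 37 pairs, and 14 positions are empty in both. A peak that spans adjacent exons is drawn in each of their pairs.

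Sptbn1 and Sptan1 code for beta-II and alpha-II spectrin, which assemble into the spectrin tetramer of non-erythroid cells. Sptbn1 (ENSMUSG00000020315, chr11:30099395-30268175, minus strand) had 5, 6 and 8 peaks in the control-IPs and 13 and 20 in the miR-222-IPs. With 7.282 kb of coding sequence it had the highest mean density of the 9 genes, with 0.687, 0.824 and 1.10 peaks per kb in the control-IPs and 1.79 and 2.75 in the miR-222-IPs (mean 1.43 ± 0.850, SD, n = 5). The means of Sptbn1 and Macf1 differed by less than either SD over libraries. Control-IP replicate 2 put Macf1 above Sptbn1, as did control-IP replicate 4, whereas the other 3 libraries had the reverse order. Sptbn1 also held the highest score over the 9 genes, at chr11:30117555-30118094 over its exon 26, with 94.9, 89.9 and 76.2 in the control-IPs and 128 and 161 in the miR-222-IPs. At this interval the groups did not overlap before scaling, and they did after it.

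Sptan1 (ENSMUSG00000057738, chr2:29965560-30031451, plus strand) had 0, 2 and 1 peaks in the control-IPs and 6 and 12 in the miR-222-IPs. Its coding sequence of 7.53 kb carried 0, 0.266 and 0.133 peaks per kb in the control-IPs and 0.797 and 1.59 in the miR-222-IPs (mean 0.558 ± 0.653, SD, n = 5). The partner chain was therefore listed less densely than Sptbn1 in each library, and the SD of Sptan1 exceeded its mean. Its 3'UTR of 0.358 kb is the shortest of the 9 genes, and the single peak over it in 3 libraries gave the highest 3'UTR density, 1.68 ± 1.53 per kb (SD, n = 5). That peak lay in chr2:30030398-30031421, over the last 3 exons of Sptan1-208, with scores of 34.5 in control-IP replicate 4 and 72.0 and 96.9 in the miR-222-IPs. The 3'UTR of Sptbn1 had 1 peak in each library, which is 0.301 per kb, with scores of 65.8, 32.5 and 23.7 in the control-IPs and 113 in each miR-222-IP.

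Plec and Dsp code for the plakins plectin and desmoplakin, which bind intermediate filaments, plectin at Z-discs and costameres of muscle and desmoplakin at desmosomes. Plec (ENSMUSG00000022565, chr15:76170974-76232574, minus strand) had 1 peak in control-IP replicate 2, 3 in miR-222-IP replicate 2 and none in the other 3 libraries. The peak of control-IP replicate 2 (score 29.5) lay wholly in the 3'UTR, and the one of miR-222-IP replicate 2 over the same interval (42.1) also reached into coding sequence. The terminal coding exon of Plec has 6213 coding bases, and 18.5% of them were under peaks in miR-222-IP replicate 2. Dsp (ENSMUSG00000054889, chr13:38151294-38198577, plus strand) had no exonic peak in the 5 libraries over 8.649 kb of coding sequence and 0.648 kb of 3'UTR. Neither plakin came near the spectraplakins, with a Plec mean of 0.0405 ± 0.0906 peaks per kb of coding sequence (SD, n = 5).

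Syne1 and Syne2 code for nesprin-1 and nesprin-2, which reach from the outer nuclear membrane into the cytoplasm. Syne1 (ENSMUSG00000096054, chr10:5020917-5551482, minus strand) had 3 peaks in miR-222-IP replicate 2 and none in the other 4 libraries. They lay over exons 140, 143 and 146 of the 146 exons of Syne1-205, with scores of 22.4, 20.4 and 45.7. At each of them, 2 of the 5 coding transcripts have coding sequence. Syne2 (ENSMUSG00000063450, chr12:75818134-76110926, plus strand) had 2 peaks, 1 of them from control-IP replicate 2 (21.5) and the other from miR-222-IP replicate 2 (22.2). Both fell in chr12:76109842-76110338, over the last exon, with 200 coding bases and 297 bases of 3'UTR. Of 4 equal stretches of either nesprin mRNA, only the last had bases under a peak, and mean densities in coding sequence were 0.0226 ± 0.0506 per kb for Syne1 and 0.0193 ± 0.0264 for Syne2 (SD, n = 5).

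Ahnak (ENSMUSG00000069833, chr19:8989284-9076914, plus strand) codes for a giant scaffold protein of the plasma membrane. It had 3 peaks in miR-222-IP replicate 2 and none in the 3 control-IPs or in miR-222-IP replicate 1, which gave 0.176 peaks per kb of coding sequence in the first of these and a mean of 0.0351 ± 0.0786 (SD, n = 5). All 3 lay in its exon of 17498 bp, at chr19:9002545-9003192, chr19:9014980-9015886 and chr19:9017138-9018403. Their scores were 33.0, 43.3 and 69.7 in this order, and together they covered 16.5% of the 16623 coding bases of that exon. The last of them reached 82 bases into the 3'UTR. The size of the exon was thus not matched by coverage, since the Macf1 exon of 5331 bp had 69.2% of its bases under peaks in the same library.

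Among the 296 protein-coding genes with at least 7.282 kb of coding sequence, ranked by mean peaks per kb of coding sequence, Sptbn1 was 11th, Macf1 17th, Dst 41st and Sptan1 58th. Plec, Ahnak, Syne1 and Syne2 ranked 159, 162, 170 and 173, and Dsp was among the genes at 0. The other 287 genes had a median of 0.0593, and 112 of them had no exonic interval. The 9 genes therefore split into 4 that were well above this median and 5 that were below it, and a long coding sequence was found with many peaks and with few. Single libraries placed Sptbn1 at ranks 5 to 38, Macf1 at 11 to 29, Dst at 32 to 65 and Sptan1 at 35 to 91, where Dst and Sptan1 were among the genes at 0 in control-IP replicate 1. With the 10579 highest peaks of each library, the mean ranked these 4 genes 10, 16, 56 and 73. Macf1 and Syne1 have nearly the same coding length, 26.891 and 26.52 kb, and had 64 and 3 intervals.

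The intervals over the 9 genes followed exons. Of 160 intervals, 144 (90%) lay over a single exon block, and their median width was 336 bp, against 376 bp for all exonic intervals. A median of 58.3% of an interval was exon, and 13 intervals lay wholly in exon sequence. Coding sequence without 3'UTR was covered by 152 intervals (95%), coding sequence with 3'UTR by 8 (5%), and 3'UTR without coding sequence by none. Among all exonic intervals these shares were 64.8%, 17.8% and 9.97%. Each of the 8 genes with a peak had exactly 1 interval that reached into its 3'UTR. The 9 genes also hold much less 3'UTR than coding sequence, 15.591 against 158.967 kb.

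Peaks over coding blocks were also counted by block length. In Macf1, miR-222-IP replicate 2 had peaks over 36.8% of 19 coding blocks shorter than 100 bp, 59.3% of 27 blocks of 100 to under 150 bp, 63.6% of 33 blocks of 150 to under 200 bp and 92.3% of 26 longer blocks. In the same library, Dst had 30%, 39.3%, 60.6% and 65.5% of 20, 28, 33 and 29 blocks of these lengths. Control-IP replicate 1 had Macf1 peaks only over blocks of 200 bp or more, 5 of 26. The order by length was not the same in each library or gene. Control-IP replicate 2 had Dst peaks over 27.3% of blocks of 150 to under 200 bp and over 6.90% of longer ones. In Sptan1, miR-222-IP replicate 2 had peaks over 6.67%, 48.1% and 66.7% of 15, 27 and 9 blocks of the shorter lengths but over 14.3% of the 7 longest blocks, where the other 4 libraries had none.

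Just inside the rule, the smallest exon overlap was 62 bp, of a Macf1 peak in miR-222-IP replicate 2, and the lowest score was 20.0, of a Dst peak in control-IP replicate 4. Just outside it were 4 peaks in Macf1 introns, 1 from control-IP replicate 2 (23.0) and 3 from miR-222-IP replicate 2 (21.8, 23.8 and 22.5), which lay 1206 to 20588 bp from the nearest exon. No other gene of the 9 had an intronic peak. Exons of a second gene also lay under 5 of the 160 intervals, 4 in Dst and 1 in Sptan1, and their peaks cannot be assigned to either gene.

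Exons were searched for seed matches to show which of the peaks lay over the bases that miR-222 could pair with. The mature sequences come from RefSeq (GRCm38.p6), with the seed in capitals. The sequence of the transfected duplex was not used here, and the mouse miRNA is shown in its place.
mmu-miR-222-3p: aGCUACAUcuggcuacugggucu
mmu-miR-221-3p: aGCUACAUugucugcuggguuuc
mmu-let-7a-5p: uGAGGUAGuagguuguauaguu
mmu-miR-133b-3p: uUUGGUCCccuucaaccagcua
mmu-miR-206-3p: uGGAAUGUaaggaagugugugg
The miR-222 and miR-221 seeds are identical, and their match in DNA letters is ATGTAGC. The match of let-7a is CTACCTC. For the muscle miRNAs, the match of miR-133b is GGACCAA and that of miR-206 is ACATTCC. They were read on the strand of the gene in genomic exon blocks, so a match across a splice junction would be missed, and none of the 59 exon matches of the 4 motifs overlapped another.

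The 9 genes held 10 exonic matches to the miR-222 seed, 4 in Dst, 2 in Sptbn1 and 1 each in Macf1, Sptan1, Syne1 and Ahnak. Plec, Syne2 and Dsp had none. Peaks lay over 5 of the 10, all in coding sequence. In the same genes, peaks overlapped 7 of 20 exonic miR-133b matches, 4 of 15 let-7a matches and 1 of 14 miR-206 matches. Of these 7, the Sptan1 match at chr2:29987011-29987017 was overlapped only in part, since the interval there ended at 29987014. The longest list, that of miR-222-IP replicate 2, reached every match of the 4 motifs that a peak overlapped. The difference between motifs was not tested. The 5 covered miR-222 sites are printed with the match in capitals, 5′ to 3′ on the gene's strand, from GRCm38. A sixth miR-222 match under a peak lay in a Macf1 intron next to the exon covered by that peak.
Sptbn1: gaagcataaagATGTAGCagaagagatcac
Dst, first site: gcatgctttttATGTAGCtgaaaaaatcgg
Dst, second site: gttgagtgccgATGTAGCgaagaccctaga
Sptan1: cgcaatggaagATGTAGCgactcgacgaga
Ahnak: tgtagacttaaATGTAGCtgcacctaaagg
Macf1 intron: aagtgaccttcATGTAGCtttgatttgttt
The Sptbn1 site (chr11:30138880-30138909, minus strand) lay under a peak in all 5 libraries, with scores of 35.2, 36.6 and 54.1 in the control-IPs and 67.2 and 105 in the miR-222-IPs. Both miR-222-IPs were above all control-IPs there. The first Dst site (chr1:34152259-34152288, plus strand) had scores of 74.0 and 26.8 in control-IP replicates 2 and 4 and 42.8 and 70.9 in the miR-222-IPs, and here the groups overlapped. The second Dst site (chr1:34251763-34251792, plus strand) and those of Sptan1 (chr2:29993657-29993686, plus strand) and Ahnak (chr19:9003090-9003119, plus strand) were covered only in miR-222-IP replicate 2, with scores of 40.3, 44.7 and 33.0. The same held for the intronic Macf1 site (chr4:123369762-123369791, minus strand), with a score of 31.6. The exonic miR-222 matches under no peak were 2 in 3'UTRs, of Dst and Syne1, and 3 in exon parts outside coding sequence and 3'UTR.

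Of the 160 intervals, 6 (3.75%) held the miR-222 match on the gene's strand, against 2.51% of the 37545 exonic intervals with exons on 1 strand only. On the opposite strand it was in 5 (3.13%) and in 2.75% of all. The let-7a match was in 5 intervals (3.13%, against 3.62% of all), the miR-133b match in 7 (4.38% against 3.25%) and the miR-206 match in 3 (1.88% against 3.44%). On the opposite strand the let-7a match was in 10 of the 160 (6.25%, against 2.97% of all), the miR-133b match in 2 (1.25% against 2.43%) and the miR-206 match in 5 (3.13% against 3.93%). The let-7a and miR-206 matches were thus in more of the 160 intervals on the opposite strand than on the gene's strand, and no motif was in more than 10 intervals on either. In Macf1, matches also lay in intervals that had a peak in all 5 libraries. A let-7a match was in the exon of 5331 coding bases and a miR-133b match in an exon of 519 bp, printed here from GRCm38 as above.
Macf1, let-7a match (chr4:123472235-123472264, minus strand): cgtaaagcaatCTACCTCaggtctggatgc
Macf1, miR-133b match (chr4:123456660-123456689, minus strand): cagtccttcctGGACCAAcacagtcacaat
The scores over the let-7a match are those given for that exon, and the interval with the miR-133b match had scores of 20.7, 96.0 and 21.4 in the control-IPs and 29.4 and 57.4 in the miR-222-IPs.

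The libraries differed in which intervals they called. A peak in all 5 libraries was found in 9 of the 160 intervals (5.63%), against 19.8% of all exonic intervals. These 9 were 5 of 64 in Macf1 and 4 of 21 in Sptbn1. At least 2 libraries had a peak in 99 intervals (61.9%, against 62.2%), so the 9 genes stood below the background in the first count and beside it in the second. Only miR-222-IP replicate 2 called 55 (34.4%, against 30.9%), and only control-IP replicate 2 called 5 (3.13%, against 5.63%). A control-IP without any miR-222-IP called 5 (3.13%, against 6.14%), and both miR-222-IPs without any control-IP called 25 (15.6%, against 6.53%). The last group comprised 8 intervals of Macf1, 8 of Dst, 5 of Sptbn1 and 4 of Sptan1. Peaks over the 9 genes had median scores of 27.7, 31.3 and 28.9 in the control-IPs and 29.2 and 38.7 in the miR-222-IPs. All exonic peaks had higher medians, 34.4, 37.1 and 36.0 in the control-IPs and 36.2 and 40.9 in the miR-222-IPs. The part of the lower scores in these call patterns was not tested. The miR-222-IPs had the longest lists of the 5, so the same counts were made with the 10579 highest peaks of each library, an alternative chosen after the values had been seen. It left 51 intervals over the 9 genes, of which 2 (3.92%, against 1.35% of all exonic intervals) had a peak in both miR-222-IPs and no control-IP, and 14 (27.5%, against 26%) in a control-IP and no miR-222-IP. All 5 libraries shared 5 of the 51 (9.8%, against 28.7%), at least 2 libraries shared 30 (58.8%, against 70%), and 6 (11.8%, against 5.78%) came from miR-222-IP replicate 2 only. Control-IP replicate 2 alone called 9 (17.6%, against 14%), so for this count the 9 genes went from below the background to above it.

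To compare the conditions at unequal list lengths, peaks over a gene were expressed per 1000 exonic peaks of their library. The 9 genes together had 0.995, 2.96 and 3.47 in the control-IPs and 4.32 and 4.27 in the miR-222-IPs. Both miR-222-IPs were above all control-IPs, with a log2 ratio of 1.13 in experiment 1, 0.30 in experiment 2 and a mean of 0.71. The experiment enters this mean as a block, and without the block the log2 ratio was 0.80. The 9 genes were chosen by their peak counts in these libraries, so this order and these ratios are a description. The share of other gene sets with the same order is not given. Ahnak and Syne1 entered with peaks in miR-222-IP replicate 2 only. With the 10579 highest peaks of each library the values were 0.995, 2.46 and 2.44 in the control-IPs and 2.64 and 2.92 in the miR-222-IPs, and the log2 ratios fell to 0.61 and 0.26. With all peaks, leaving out any 1 library kept the sign, but the mean log2 ratio was 0.42 without control-IP replicate 1, whose list was the shortest, and 1.21 without control-IP replicate 2. It was 0.30 without miR-222-IP replicate 1, which leaves only experiment 2, and 1.13 without control-IP replicate 4 or miR-222-IP replicate 2, which leaves only experiment 1. Each experiment had a single miR-222-IP.

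By gene, Dst had 0, 0.846 and 0.982 peaks per 1000 exonic peaks in the control-IPs and 1.23 and 1.39 in the miR-222-IPs. Sptan1 had 0, 0.106 and 0.0578 in the control-IPs and 0.295 and 0.333 in the miR-222-IPs. Sptbn1 had 0.498, 0.317 and 0.462 in the control-IPs and 0.639 and 0.555 in the miR-222-IPs. In these 3 genes both miR-222-IPs were above all control-IPs. This order held for 9.23% of the 3368 genes with at least 10 exonic peaks, and the reverse order for 21.7%. Sptan1 had 0, 2 and 1 peaks in the control-IPs and 6 and 12 in the miR-222-IPs. It passed that filter only through the miR-222-IPs, so these shares are no background for it. Macf1 had 0.498, 1.59 and 1.96 in the control-IPs and 2.16 and 1.72 in the miR-222-IPs, and its groups overlapped. Without control-IP replicate 1 the order of the groups was the same for these 4 genes, against a background of 12.9% higher and 23.8% lower. The same limit holds there for Sptan1.

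The order did not hold at equal list length. With the 10579 highest peaks of each library, Dst had 0, 0.885 and 0.390 per 1000 in the control-IPs and 0.488 and 0.681 in the miR-222-IPs. Sptbn1 had 0.498, 0.295 and 0.390 in the control-IPs and 0.488 and 0.779 in the miR-222-IPs. Macf1 had 0.498, 1.28 and 1.56 in the control-IPs and 1.56 and 1.27 in the miR-222-IPs. Sptan1 kept only 3 peaks, too few for the background of genes with at least 10. The groups overlapped for all 4 genes, while 3.71% of 1510 background genes had both miR-222-IPs higher and 9.74% lower. An exact two-sided permutation test over the 6 arrangements of labels within experiments cannot give a p below 0.167. With all peaks it gave 0.667 for Macf1, 0.333 for Dst, 0.167 for Sptan1 and 0.333 for Sptbn1. The genes were chosen by their peak counts in these libraries, so the permutation p-values are a description and no independent evidence of a difference. This limit weighs most on Sptan1, which reached at least 10 peaks only through the miR-222-IPs. Within experiments 1 and 2, miR-222-IP minus control-IP at equal list length was 0.0461 and 0.291 per 1000 for Dst and 0.0921 and 0.389 for Sptbn1, so both stayed positive, and the mean over experiments was 0.24 for Sptbn1 against 0.162 with all peaks. The exact permutation p at equal list length was 0.833 for Macf1 and for Dst, 0.333 for Sptan1 and 0.5 for Sptbn1. Of the myocyte markers, Ttn and Neb had 122 peaks in miR-222-IP replicate 2 and at most 11 in each other library, while the groups overlapped for the other 8. Of the leukocyte markers, Ptprc had no peak in control-IP replicate 1, where Dst and Sptan1 had none. The other, Cd68, had 2 peaks there and in each other library. The part of these cell types in the differences was not tested.

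**Figure D4:**
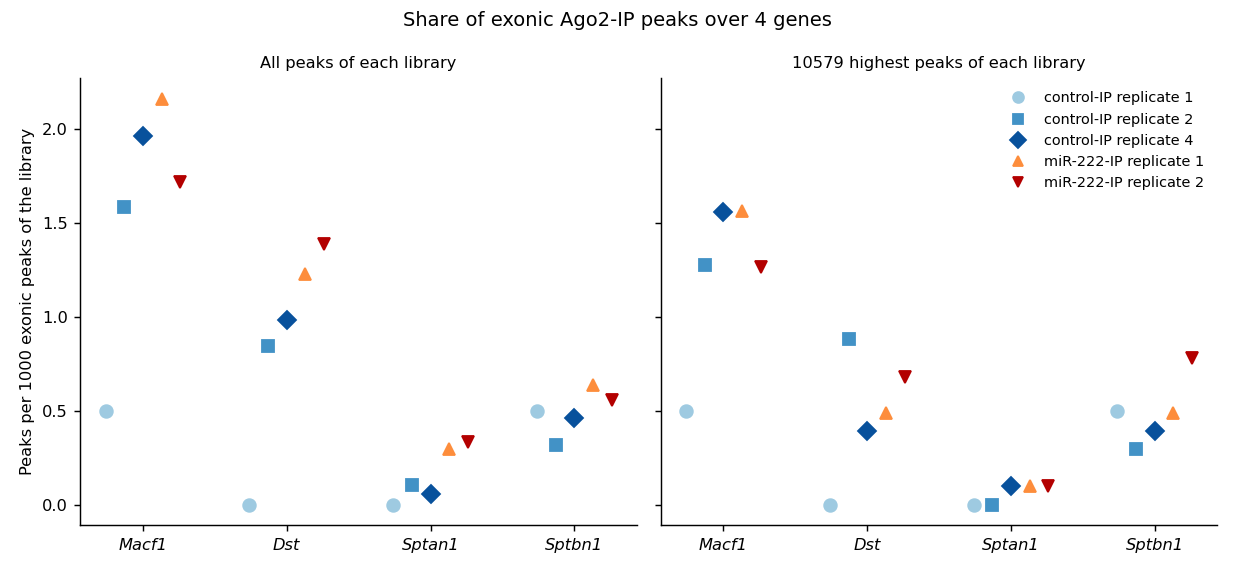
Peaks over Macf1, Dst, Sptan1 and Sptbn1 per 1000 exonic peaks of each of the 5 libraries, from all peaks (left) and from the 10579 highest peaks of each library (right). On the left both miR-222-IPs lie above all control-IPs for Dst, Sptan1 and Sptbn1, and on the right the groups overlap for all 4 genes.

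Scores of those 9 shared intervals were put on 1 scale with median-of-ratios factors from the 7698 exonic intervals that all 5 libraries called. The scaled score of both miR-222-IPs was above all control-IPs in 2 of the 9, against 10.7% of the 7698, and below all of them in 0, against 13.2%. The 2 were the Sptbn1 interval with the seed match (chr11:30138306-30139456) and a Macf1 interval at chr4:123451980-123452442. The first had scaled scores of 50.1, 37.7 and 54.7 in the control-IPs and 63.4 and 70.1 in the miR-222-IPs. The second had 38.4, 79.0 and 78.1 in the control-IPs and 86.9 and 93.0 in the miR-222-IPs. Their log2 ratios were 0.53 and 0.57 in experiment 1 and 0.36 and 0.25 in experiment 2, where the SD over the 7698 intervals was 0.47 and 0.53. A ratio of scores mixes enrichment with depth and is not a fold change in reads. At the highest Sptbn1 interval the scaled scores were 135, 92.5 and 77.0 in the control-IPs and 121 and 108 in the miR-222-IPs, so the groups overlapped. The control-IPs themselves lay far apart at Macf1 chr4:123456215-123456792, with 29.4, 98.8 and 21.6.

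**Figure D5:**
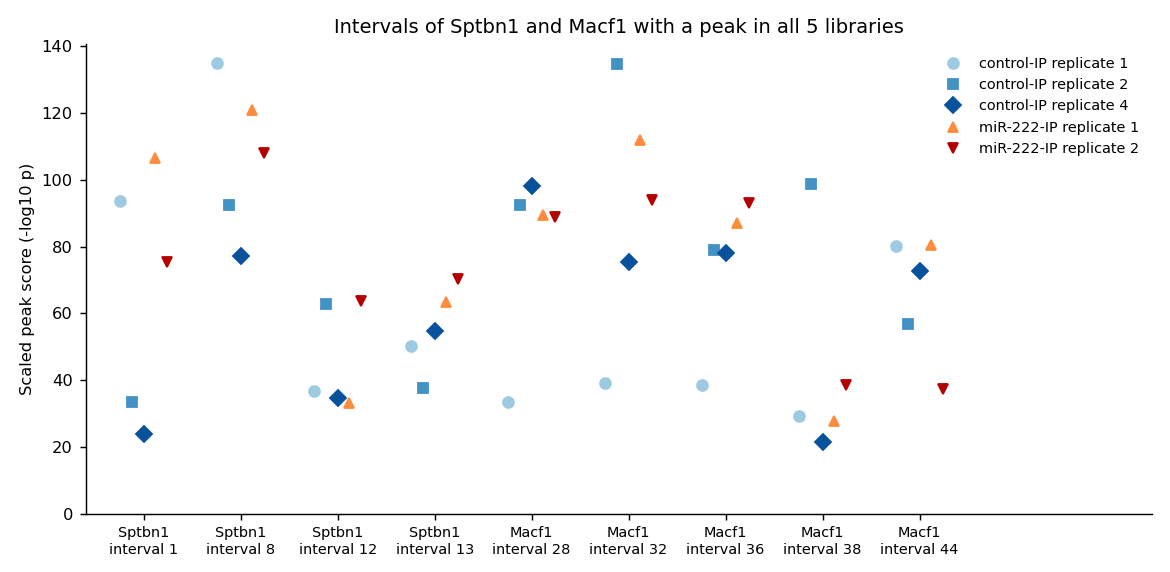
Scaled scores (−log10 p) of the 5 libraries at the 4 Sptbn1 and 5 Macf1 intervals with a peak in every one of them. The miR-222-IPs lie above all control-IPs at Sptbn1 interval 13 and Macf1 interval 36, and the groups overlap at the other 7.

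Related genes were taken from a list of 39 further linkers, membrane anchors and partners, of which 38 were matched as protein-coding genes. Exonic intervals lay over 29 of them, and 15 had a peak in all 5 libraries. The same shares over all protein-coding genes are not given here, so these counts are a description only. The most intervals were over Utrn (31), the dystrophin homologue utrophin, followed by the microtubule plus-end gene Clasp2 (24) and the Z-disc crosslinker Actn2 (18). Utrn had 0, 4 and 0 peaks in the control-IPs and 2 and 31 in the miR-222-IPs, whereas Clasp2 had 10, 14 and 14 and then 15 and 22. Genes without an interval included Evpl, Eppk1, Sptbn4, Syne3, Syne4, Dsg2, Dsc2 and Add2. Sptbn4 codes for another beta spectrin, Evpl and Eppk1 for plakins of epithelia, and Dsg2 and Dsc2 for desmosomal cadherins that join desmoplakin at the desmosome.

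In control-IP replicate 3, with its wide peaks, 6 peaks overlapped exons of the 9 genes, 2 in Plec and 1 each in Dst, Syne1, Dsp and Sptbn1. Their widths reached 302318 bp in Dst and 298858 bp in Syne1, so each spanned a large share of a gene and cannot be placed on an exon. The list of this library has no peak on chromosomes 2, 4 and 19, where Sptan1, Macf1 and Ahnak lie, and for these genes it gives no information.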

How the data were processed

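RISC-IP RNA was sequenced from MSC myocytes in 4 control-IPs and 2 miR-222-IPs of 2 experiments. SOAPSplice was used by the authors for alignment to mm10, bedtools for conversion and MACS2 for peaks of single libraries. The deposited value is −log10 p, and peaks at 20 or less had been removed. Neither a MACS2 version nor a control sample for the calling is given in the sources used here.

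Lists were analysed with pandas 2.3.3 and numpy 2.4.6 under Python 3.11.15, and plots were made in matplotlib 3.10.9. Intervals were merged over 5 libraries without control-IP replicate 3. Coding sequence and 3'UTR were unions over the coding transcripts of GENCODE M21. A 3'UTR base that was coding in any transcript was left out. List lengths differed, hence the values per 1000 exonic peaks and at 10579 peaks per library. Functions for merging, overlap and counting were tested on simulated peaks.

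The members, the marker list and the list of related genes were chosen with earlier results of these data known. Named were the 9 genes, the interval with the highest score of each, intervals with a miR-222 match, the other genes with the most intervals, the top and the empty genes of the related list (1 of them is not reported here), and the intervals shared by all 5 libraries, the long exons and the let-7a and miR-133b matches, the last 3 groups chosen after their values were seen. No model across features was fitted, since the lists hold no counts. Conditions were compared within experiments, by gene, with exact permutation tests. Alternatives covered the score threshold, the overlap, the transcript model, the list length, the wide-peak library, the block and the omission of each library. Call patterns at equal list length, the order of groups without control-IP replicate 1, ranks of long genes by library and at equal list length, and myocyte markers without Ttn and Neb were added after the values had been seen.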

Additional observations from a re-analysis of the deposited data

Results flagged for a closer look

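Macf1 peaks per 1000 exonic peaks moved in opposite directions in the experiments. MiR-222-IP minus the mean of the control-IPs was 1.12 in experiment 1, where miR-222-IP replicate 1 (2.16) was above both control-IPs (0.498 and 1.59). It was -0.24 in experiment 2, where miR-222-IP replicate 2 (1.72) was below control-IP replicate 4 (1.96). The difference between the experiments was not tested, and control-IP replicate 1 held only 5 Macf1 peaks.

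The wide-peak library, control-IP replicate 3, had peaks over 2 genes without a peak in the other control-IPs. The peak over Syne1 had a score of 144 and a width of 298858 bp, and the peak over Dsp had a score of 35.2 and a width of 58397 bp. The 5 libraries with narrow peaks had 3 peaks over Syne1 exons, all in miR-222-IP replicate 2, and none over Dsp.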

How the results depend on the processing

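Raising the score threshold to 50 left 49 of the 160 intervals, 83 of the 368 peaks and 0.102 peaks per kb of coding sequence in place of 0.459. With the same number of peaks from each library there were 51 intervals and 117 peaks, and with the wide-peak library included there were 86 intervals, since its peaks join those of other libraries. Counting over the longest coding transcript of each gene raised the pooled 3'UTR density from 0.282 to 0.589 per kb. The length of 3'UTR changed as well. In Dst-211 the coding sequence ends at 23.198 of 23.201 kb, while the union 3'UTR of Dst is 3.702 kb. The part of length in the rise was not tested. Leaving out each library in turn gave 107 to 160 intervals, 214 to 358 peaks, 0.332 to 0.558 peaks per kb of coding sequence, 0.224 to 0.337 per kb of 3'UTR and a log2 ratio of miR-222-IP to control-IP of 0.30 to 1.21. The lowest peak count was the one without miR-222-IP replicate 2. For pairing, the experiment served as the block, because the replicate numbers do not pair libraries. The log2 ratio was 0.71 with the block and 0.80 without it, and its sign held in all 9 alternatives. These are not separate checks, and all of them use genes chosen by their peak counts in these libraries. Leaving out miR-222-IP replicate 1, control-IP replicate 4 or miR-222-IP replicate 2 leaves a single experiment. The wide-peak library has no peak on the chromosomes of Sptan1, Macf1 and Ahnak. The 3 genes whose miR-222-IPs lay above all control-IPs no longer did so at equal list length. Within experiments the difference from the mean of the control-IPs stayed positive for Dst and Sptbn1. In experiment 1, however, miR-222-IP replicate 1 was below control-IP replicate 2 for Dst (0.488 against 0.885). For Sptbn1 it was below control-IP replicate 1 (0.488 against 0.498). The lists hold no reads, so the depth behind a listed or a missing peak is unknown.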
